A study of Mus musculus with 8 samples.

Results

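The genes described here are 10 genes of the major histocompatibility complex (MHC) class I pathway, chosen by symbol: H2-K1, H2-D1, B2m, Tap1, Tap2, Tapbp, Psmb8, Psmb9, Psmb10 and Nlrc5. All 10 have a promoter window among the 18603 windows measured for H3K27me3, the repressive histone mark that PRC2, a Polycomb complex, writes. In the RNA data, which hold 22410 genes, 9 of the 10 have a row and the symbol H2-D1 is absent. An RNA row named H2-L begins at the centre of the H2-D1 window and lies inside the annotated H2-D1 gene, so it is given beside the 9 as the H2-L row at the H2-D1 locus and is not counted among them.

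Both assays used naive CD4+ T cells isolated from the lymph nodes of 129SV/B6 mice. The study compared mice with and without Ezh1 and Ezh2, the alternative catalytic subunits of PRC2. The 4 genotypes were WT, Ezh1 -/- (Ezh1 KO), Ezh2 fl/fl CD4-cre (Ezh2 KO) and both deletions together (double KO). Ezh1 -/- stands for loss in all cells, whereas a CD4-cre acts in the T cell lineage, so other cells in these preparations would still carry an intact floxed Ezh2. Each genotype has 1 ChIP-seq and 1 RNA-seq library. With no replicates, no difference below has an SD or a test, and each comparison is between single libraries. Ages, sexes and numbers of mice are not given in the labels.

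Class I molecules show peptides from inside the cell to CD8 T cells and, by their presence, hold back NK cells. Peptides are cut by the proteasome, in which interferon-induced subunits can replace the constitutive ones. They are then pumped into the endoplasmic reticulum by the TAP transporter and loaded onto a class I heavy chain paired with beta-2-microglobulin. Lymphocytes keep this pathway at a high level at rest, with Nlrc5 as the transactivator that acts at class I promoters through the X and Y boxes.

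The promoters of H2-K1, H2-D1, B2m and Tap1 are printed because they hold short matches to the X and Y boxes named above. The first pair also shows how alike the heavy chain genes are. The sequences are RefSeq windows on GRCm38.p6, from 250 bases before to 50 after the gene start, read 5′ to 3′ on the gene's strand. They lie at chr17:34000284-34000583 (minus strand) for H2-K1, chr17:35262844-35263143 (plus) for H2-D1, chr2:122147437-122147736 (plus) for B2m and chr17:34187306-34187605 (plus) for Tap1. Capitals mark matches on either strand to the Y box core CCAAT, the X2 box core TGACG, the interferon-stimulated response element and the NF-kB consensus.
H2-K1: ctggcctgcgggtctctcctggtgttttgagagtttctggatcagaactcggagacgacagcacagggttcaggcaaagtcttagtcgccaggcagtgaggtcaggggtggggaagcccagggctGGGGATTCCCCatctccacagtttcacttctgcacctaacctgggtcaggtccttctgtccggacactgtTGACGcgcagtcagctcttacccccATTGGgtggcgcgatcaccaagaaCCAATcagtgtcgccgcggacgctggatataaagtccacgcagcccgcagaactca
H2-D1: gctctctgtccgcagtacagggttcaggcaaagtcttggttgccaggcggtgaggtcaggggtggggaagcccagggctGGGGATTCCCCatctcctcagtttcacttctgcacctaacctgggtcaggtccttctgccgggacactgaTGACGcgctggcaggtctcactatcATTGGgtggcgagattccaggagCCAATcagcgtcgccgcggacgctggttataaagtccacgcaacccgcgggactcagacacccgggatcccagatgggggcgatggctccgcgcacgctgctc
B2m: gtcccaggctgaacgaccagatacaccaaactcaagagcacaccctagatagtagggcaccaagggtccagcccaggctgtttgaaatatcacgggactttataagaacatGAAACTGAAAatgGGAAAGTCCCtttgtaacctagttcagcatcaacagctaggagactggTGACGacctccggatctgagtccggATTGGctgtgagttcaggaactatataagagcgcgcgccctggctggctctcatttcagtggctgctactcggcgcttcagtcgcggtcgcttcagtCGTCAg
Tap1: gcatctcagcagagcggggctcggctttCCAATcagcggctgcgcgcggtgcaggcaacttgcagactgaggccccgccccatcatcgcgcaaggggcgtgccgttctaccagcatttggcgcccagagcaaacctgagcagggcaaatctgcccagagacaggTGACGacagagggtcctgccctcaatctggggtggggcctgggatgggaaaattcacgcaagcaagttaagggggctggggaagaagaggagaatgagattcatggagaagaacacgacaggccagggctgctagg

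The H2-K1 and H2-D1 promoters were identical at 222 of 253 aligned bases (87.7%). Both hold an NF-kB match, then an X2 box core, then a Y box core on the minus strand and another on the plus strand, in that order towards the gene. B2m holds the same 3 kinds of match. Of the 8 genes found in the promoter table, only B2m matched the exact pattern used for the interferon-stimulated response element. That pattern was found in 3.44% of all 32851 promoter windows. Variants of it were not searched for, so whether H2-K1, H2-D1 or the other promoters hold such an element was not tested. Tap1 and Psmb9 are transcribed away from each other from starts 226 bases apart, so their promoter windows share 275 bases and the Tap1 sequence above serves for both. In Tap1 the Y box core (at -222 from the gene start) comes before the X2 box core (at -86), unlike in H2-K1, H2-D1 and B2m. A Y box core was found in 6 of the 8 promoters (37.4% of all windows), an X2 box core in 5 (20.8%) and an NF-kB match in 3 (8.46%). Tap1 and Psmb9 hold the same Y box core and the same X2 box core, read from either strand, and each is counted for both genes. The gamma-activated site TTCNNNGAA, which is not capitalised above, was found in 1, that of Psmb8 (8.30% of all). The 8 promoters, with the shared Tap1 and Psmb9 bases counted for both, had a median of 14.5 CpG dinucleotides, against 7 in all windows. A match describes the letters only.

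The likeness of class I genes bears on every value of H2-K1 and H2-D1, because only reads that aligned to a single place were kept. Of the 50-base stretches in the H2-K1 exons, 57.4% have no other place in mm9 within 2 mismatches, and in the exons of the H2-L row 42.8%. In the 6 kb windows the share is 47.1% for H2-K1 and 66.6% for H2-D1. For the other members it lies between 83.2% (Tap2) and 100% (Tapbp) in windows and at 95.4% or more in exons. Levels of H2-K1 and of the H2-D1 locus set beside those of other genes, here and below, carry this limit and may be too low, whereas ratios between libraries share it on both sides.

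The windows, in mm9 coordinates, are 6 kb long, and each centre lies in an annotated exon. On chromosome 17 they run from 34134229 to 34140229 for H2-K1, from 34053423 to 34059423 for Tapbp, from 34321679 to 34327679 for Tap1, from 34321318 to 34327318 for Psmb9, from 34332313 to 34338313 for Psmb8, from 34338025 to 34344025 for Tap2 and from 35397039 to 35403039 for H2-D1. B2m lies on chromosome 2 (121970422 to 121976422). Psmb10 (108458987 to 108464987) and Nlrc5 (96997023 to 97003023) lie on chromosome 8. The Tap1 and Psmb9 windows share 5639 bases (94.0%) and are close to 1 measurement, and Tap2 and Psmb8 share 288. The Nlrc5 window is centred 3360 bases inside the annotated gene, which the annotation used here types as a lincRNA, so it may miss that gene's own start.

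Across the series, the ChIP libraries held 78.2 to 88.2 M reads and the RNA libraries 36.1 to 94.1 M, as implied by the height of 1 read. Ezh1 RNA (mean exon peak per M reads) was 0.196 and 0.194 in the libraries lacking it (Ezh1 KO and double KO) and 1.05 or 1.12 in the other pair. Ezh2 RNA, a mean over 21 exons, was 0.913 to 1.17 and does not check the deletion. The summed RNA of 12 naive CD4 T cell markers was 267.4 in WT and 232.6 to 233.9 in the mutants. None of them was listed at 0. All comparisons with WT share the same WT library in each assay, so they are not independent of one another.

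In WT, none of the 10 class I pathway promoters carried more H3K27me3 than a typical window. The values are the summed coverage of a window per M reads, and where 4 values follow each other below they are those of WT first, then the Ezh1 KO, the Ezh2 KO and last the double KO. Over the 10 windows they ran from 4.72 at Tapbp to 11.7 at B2m with a median of 6.59, against a median of 13.5 over all windows and of 10.13 over the 6011 windows of genes in the upper tertile by WT RNA. A window counted as marked at 40.5 or more, which is 4 times that last median. Of all windows 12.0% were marked in WT and 0 of the 10 were. The same held in the mutants: in every library all 10 lay below the median of all windows, and none was marked.

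**Figure D1:**
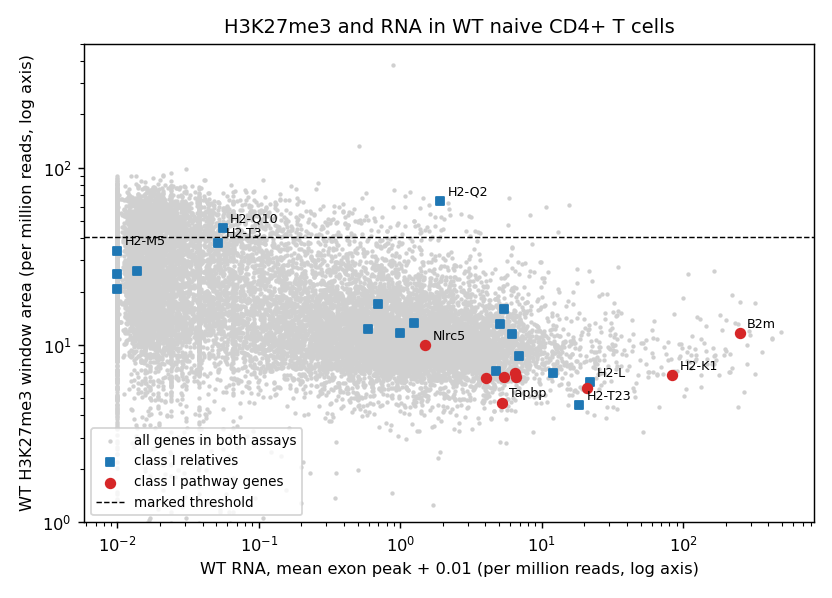
H3K27me3 window area (vertical, per M reads, log axis) against mean exon peak RNA (horizontal, per M reads plus 0.01, log axis) in WT, for all genes in both assays (grey), class I relatives (blue squares) and 9 class I pathway genes (red); the dashed line is the marked threshold of 40.5. The red points sit at 4.72 to 11.7 on the vertical axis with RNA from 1.49 to 252.0, while the silent relatives sit above 20.

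Other genes of the class I family give levels for silent genes of the same family. Of 26 listed relatives, 21 had a window entry (that of H2-L is the H2-D1 window, and H2-Q6 with H2-Q8 and H2-Q7 with H2-Q9 share theirs) and 2 of these were marked in WT, H2-Q2 at 64.6 and H2-Q10 at 45.7. In both assays 18 were present apart from the H2-L row, and 6 of them had WT RNA under 0.1. Those 6 windows (H2-Q10, H2-T3, H2-M1, H2-M5 and H2-M9 among them) ran from 20.7 to 45.7. The 9 relatives with WT RNA of at least 1 had a median of 11.5, with the lowest value at H2-T23 (4.58) and the highest at H2-Q2, whose RNA was 1.91. That value is a mean over 16 exons. By the median over exons H2-Q2 had 0.057, so it stood among these 9 only by the mean. Only 46.3% of stretches in the H2-Q2 window and 29.5% in that of H2-T23 have no second place in the genome, so these levels carry the limit given for H2-K1.

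Among the class I chains, the H2-K1 window, that of a classical heavy chain, had an area of 6.77 (WT), 7.44 (Ezh1 KO), 8.89 (Ezh2 KO) and then 8.87 (double KO). H2-D1, the other classical heavy chain of this list, had 6.14, 6.62, 8.92 and 8.20 in the same order. B2m, the invariant light chain, had 11.7, 8.65, 12.9 and 11.3. Both heavy chain windows were lowest in WT and highest in the Ezh2 KO, whereas B2m was lowest in the Ezh1 KO.

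Tap1 and Tap2, the subunits of the peptide transporter, had areas of 6.91, 7.54, 9.47 and 8.57 and of 6.60, 5.89, 8.28 and 7.88, in the same order of libraries. Tapbp, or tapasin, which bridges the transporter and the class I chain, had 4.72, 5.32, 7.44 and 7.42. At all 3 genes both libraries labelled Ezh2 fl/fl CD4-cre stood above the other pair. The same held at H2-K1, H2-D1, Psmb8 and Psmb9, and did not hold at B2m, Psmb10 or Nlrc5. The Ezh2 KO was again the highest library at all 3 genes.

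For the immunoproteasome, Psmb8 had 5.68 (WT), 6.23 (Ezh1 KO), 8.16 (Ezh2 KO) and then 6.60 (double KO). Psmb9, measured over nearly the same window as Tap1, had 6.57, 7.70, 9.49 and 8.16. Psmb10 had 6.53, 9.39, 9.48 and 8.31, so at this gene the Ezh1 KO stood as high as the Ezh2 KO. Nlrc5, the transactivator, had 10.00, 12.0, 10.7 and 10.6 and was the only member highest in the Ezh1 KO. Its highest value was 1.20 times its lowest, the narrowest span of the 10, and Tapbp had the widest at 1.58 times.

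**Figure D2:**
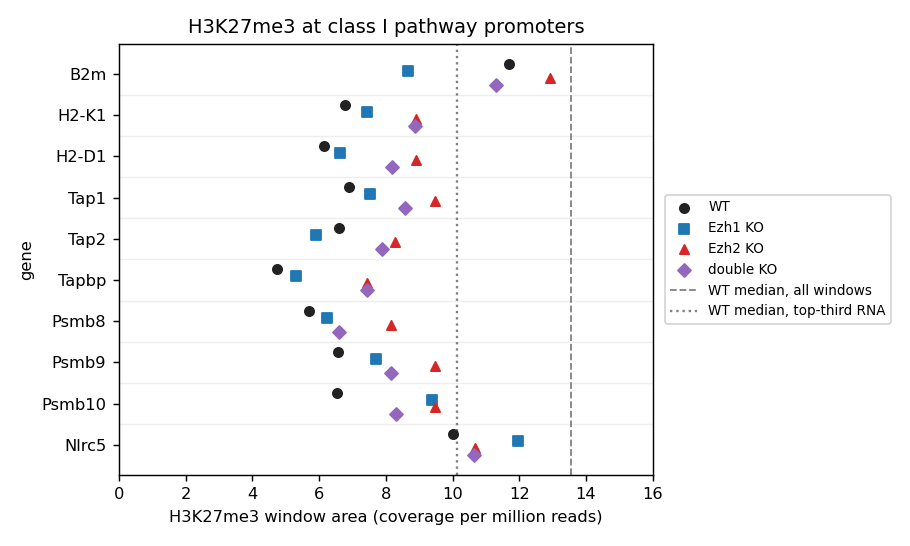
H3K27me3 window area (horizontal, per M reads) of the 10 class I pathway promoters, 1 point per library and genotype, with the WT medians of all windows (dashed, 13.5) and of windows of genes in the upper tertile by WT RNA (dotted, 10.13). The Ezh2 KO point is the rightmost at 9 of 10 genes and WT the leftmost at 8 of 10, with Tap1 and Psmb9 measured over nearly the same window. Among all windows with signal, the Ezh2 KO was highest at 24.4% and WT lowest at 26.1%. In the upper tertile these shares were 43.1% and 29.4%.

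H3K27me3 over the class I pathway promoters was somewhat higher in the Ezh2 KO library than in WT, at every member, although each level stayed low. The log2 ratios, of area plus 1, ran from 0.09 at Nlrc5 to 0.56 at Tapbp, with a median of 0.43. Over the 17982 windows compared, the median was -0.01 and 48.5% were higher. No member was called, meaning a difference of at least 2-fold, and 0.0334% of all windows were. Exact Clopper-Pearson counting intervals (95%, counting error only) lay above 0 at 6 of 10 members, against 8.36% of all windows and 14.1% of windows of the upper tertile of genes by WT RNA. All intervals here and below are for the ratio of reads per depth without the added 1, so they are not centred on the log2 ratios beside them.

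Of those 6, Tapbp had a log2 ratio of 0.56 (interval 0.18 to 1.14), from 62 reads in WT and 96 in the Ezh2 KO, as estimated from the area and the height of 1 read. Psmb10 had 0.48 (0.13 to 0.96), H2-D1 0.47 (0.12 to 0.97) and Psmb9 0.47 (0.12 to 0.94). The remaining pair were Psmb8 at 0.46 (0.09 to 0.97) and Tap1 at 0.40 (0.06 to 0.87), which shares its window with Psmb9. Intervals for H2-K1, Tap2, B2m and Nlrc5 included 0. By the highest 25-base bin of the window rather than its sum, Psmb10 had -0.14 and H2-D1 0.12.

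Low windows as a whole were higher in the Ezh2 KO library. Among the 6654 windows with a WT area within the members' range, 77.5% were higher in the Ezh2 KO, with a median log2 ratio of 0.14 and a 95th percentile of 0.46. Among the 3860 of these whose genes are in the upper tertile by WT RNA, the share was 80.3% and the median 0.16. In the Ezh1 KO the same 6654 windows had a median of -0.01, with 48.2% higher. The members' median of 0.43 is above both medians, but these windows are not matched to the members' own levels. In WT, Tap1 at 6.91 stood at the 9.58 percentile of all windows and B2m at 11.7 at the 40.9 percentile. Most windows of the range thus had a WT area above that of Tap1. Whether windows as low as most members differ as much was not tested. When all libraries were scaled to windows of the upper tertile, the members' median became 0.31 and 9 of 10 were higher, with Nlrc5 at -0.03. Whether the difference follows ChIP background in that library was not tested, and no spike-in sets an absolute scale.

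**Figure D3:**
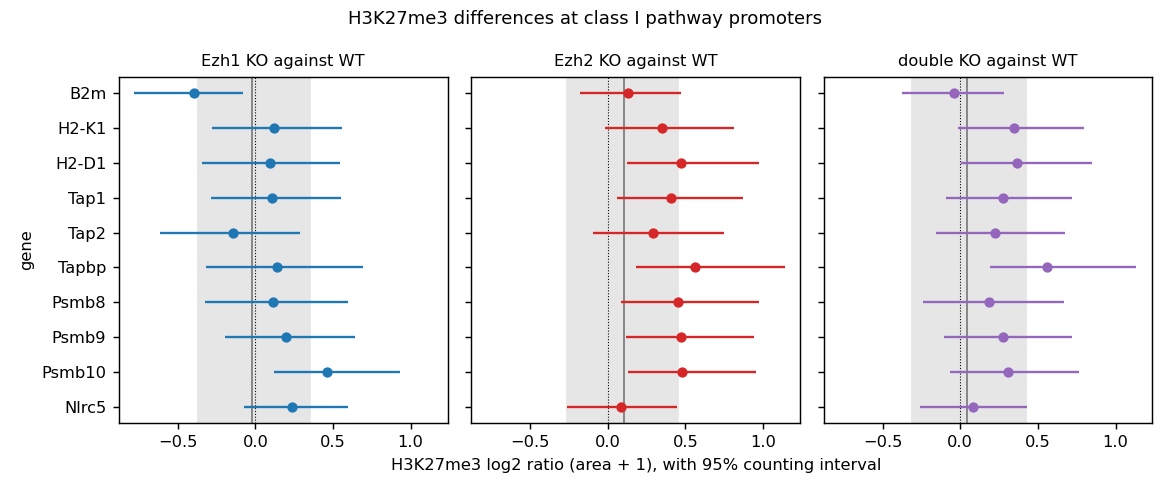
H3K27me3 log2 ratio (area + 1) of each mutant library to WT at the 10 class I pathway promoters, with 95% counting intervals. The intervals cover counting error only and are for read ratios without the added 1, so they are not centred on the points. Intervals lie above 0 at 6 genes in the Ezh2 KO, at 2 in the double KO and at 1 (Psmb10) in the Ezh1 KO, where that of B2m lies below 0.

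In the double KO, 9 of 10 members were higher than in WT and B2m had a log2 ratio of -0.04. The median was 0.27, against 0.05 over all windows, of which 59.6% were higher. No member was called, against 0.172% of all windows. Intervals lay above 0 at Tapbp (0.56, interval 0.19 to 1.13) and H2-D1 (0.36, 0.0022 to 0.85; -0.0033 by the highest 25-base bin), which is 2 of 10 members against 18.5% of all windows. Set directly against the Ezh2 KO, the double KO had lower values at all 10 members (median -0.12, all windows 0.05), and every interval included 0. No member was called there, against 0.0334% of all windows. Windows within the members' WT range had a median of -0.07 there, with 36.4% higher. H2-K1 (-0.0034), Tapbp (-0.0037) and Nlrc5 (-0.0039) hardly differed. When scaled to windows of the upper tertile they were higher (0.08, 0.078 and 0.081), as was Tap2 (0.019). By the highest bin H2-K1, Psmb10 and Nlrc5 were higher.

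In the Ezh1 KO, the members' median log2 ratio to WT was 0.12 and that of all windows 0.09, with 8 members higher and 2 lower. None was called, against 0.0334% of all windows. Psmb10 had 0.46 (interval 0.12 to 0.93) and B2m -0.39 (-0.78 to -0.08). The intervals of the other 8 included 0. Over all windows 29.1% of intervals lay above 0 and 4.69% below, and in the upper tertile 8.19% and 6.99%. By the highest 25-base bin of the window rather than its sum, Psmb10 had 0.05 and B2m -0.04, so the highest bin did not differ as the sum did. Between the double KO and the Ezh1 KO the median was 0.20, against -0.05 over all windows and 0.07 in the upper tertile. Windows within the members' WT range had a median of 0.09 there, with 66.9% higher. In this comparison 3 intervals lay above 0, at B2m (0.35), Tap2 (0.37) and Tapbp (0.41). The share above 0 was 7.16% of all windows and 12.2% of those of the upper tertile. By the highest bin B2m had 0.03 and Tap2 -0.05. No member was called, against 0.223% of all windows.

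In RNA, class I pathway genes were expressed in every genotype, and in WT their rank among all genes ran from the 83.0 percentile (Nlrc5) and 93.9 percentile (Psmb10) to the 99.9 percentile (B2m). RNA values are the mean over a gene's exons of the highest coverage in each exon, per M reads; as heights they are not divided by length. All 9 members stood at 1 or more in all 4 libraries, a level that 22.8% of all genes reached in WT. No member differed by 2-fold in any of the 5 comparisons made.

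B2m had the highest RNA of the 9: 252.0 (WT), 284.6 (Ezh1 KO), 378.5 (Ezh2 KO) and then 295.3 (double KO). It ranked 15th of all genes in WT, and 6th or 7th in the mutants. H2-K1 had 83.6, 76.98, 79.3 and 88.2, and the H2-L row at the H2-D1 locus 21.9, 20.7, 21.4 and 23.4. The light chain thus stood out in the Ezh2 KO, while the heavy chain values of all libraries lay within 1.15 times of each other. Within a library, B2m to H2-K1, which compares between libraries and not the size of either gene, was 3.02 (WT), 3.70 (Ezh1 KO), 4.77 (Ezh2 KO) and then 3.35 (double KO). With the median over exons in place of the mean, that ratio was 3.22, 2.99, 4.39 and 3.29, so the Ezh2 KO was highest by either measure and the order of WT and the Ezh1 KO was not kept.

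For transport and loading, Tap1 had 6.42 (WT), 6.16 (Ezh1 KO), 6.89 (Ezh2 KO) and then 6.52 (double KO). Tap2 had 5.40, 5.38, 5.42 and 4.96, and Tapbp 5.21, 5.24, 6.28 and 6.41. Tapbp was higher in both libraries labelled Ezh2 fl/fl CD4-cre, as its H3K27me3 also was. Tap1 and Psmb8 had this order in both assays too, though Tap1 RNA only by the mean over exons. B2m and Psmb10 had it in RNA only. In RNA H2-K1, Tap2, Psmb9 and Nlrc5 did not have it. By the mean over exons the transporter subunits stayed within 1.12 times across libraries. By the median over exons Tap1 had 6.51 (WT), 5.26 (Ezh1 KO), 5.82 (Ezh2 KO) and then 6.36 (double KO), so it was highest in WT.

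Among the immunoproteasome subunits, Psmb8 (LMP7) had 20.9, 20.7, 23.3 and 22.8, in the same order of libraries. Psmb9 (LMP2) had 6.58, 5.90, 6.92 and 5.74, and Psmb10 (MECL-1) 4.03, 3.99, 5.58 and 4.68. All 3 were highest in the Ezh2 KO, and Psmb10 spread the most, with a highest value 1.40 times its lowest. By the median over exons Psmb8 was instead highest in the double KO (20.4, against 19.0 in the Ezh2 KO). Psmb7, the constitutive subunit that Psmb10 replaces, had 9.44, 5.59, 6.65 and 7.12. The ratio of Psmb10 to Psmb7 was 0.427 (WT), 0.714 (Ezh1 KO), 0.839 (Ezh2 KO) and then 0.658 (double KO), and both its terms moved. By the median over exons the same ratio was 0.445, 0.537, 0.653 and 0.559, again lowest in WT and highest in the Ezh2 KO. Psmb8 stood at 14.3 to 17.9 times Psmb5 and Psmb9 at 1.20 to 1.33 times Psmb6, the constitutive subunits they replace.

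Nlrc5 had the lowest RNA of the 9, with 1.49 (WT), 1.32 (Ezh1 KO), 1.38 (Ezh2 KO) and then 1.60 (double KO). Its values lay within 1.21 times of each other. Leaving out H2-K1, whose level carries the limit on unique reads, B2m and then Psmb8 kept the leading ranks in every library and Nlrc5 the last, while Tap1 and Psmb9 changed places between libraries (6.42 and 6.58 in WT, 6.16 and 5.90 in the Ezh1 KO).

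**Figure D4:**
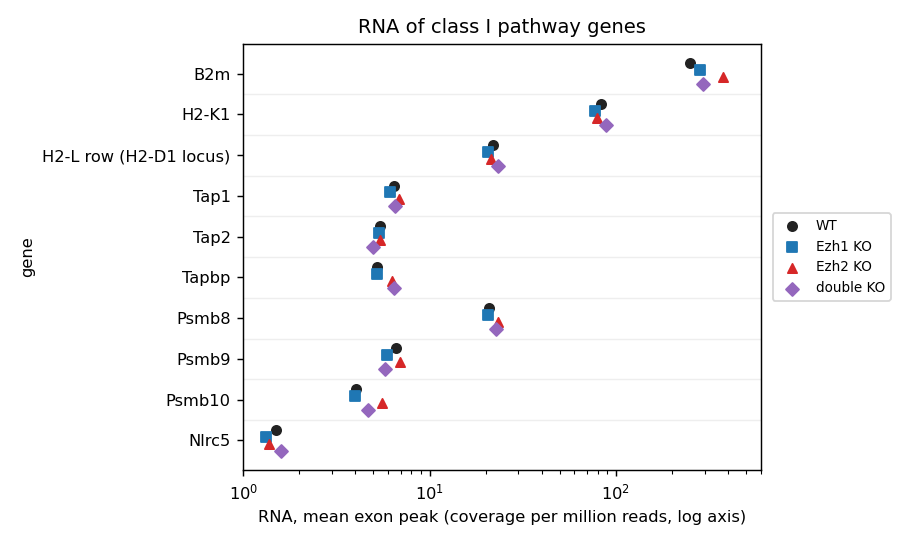
RNA (horizontal, mean exon peak per M reads, log axis) of 9 class I pathway genes and the H2-L row at the H2-D1 locus, 1 point per library and genotype. B2m spans 252.0 to 378.5 with the Ezh2 KO rightmost, and the other rows show points close together.

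Against WT, the RNA of the class I pathway in the Ezh2 KO had a median log2 ratio, of value plus 0.1, of 0.10 over the 9 genes, with 7 higher and 2 lower. Over the 5347 genes compared the median was -0.04 and 43.6% were higher. None of the 9 was called, against 1.5% of all genes. B2m had the largest ratio, 0.59, above 96.6% of all genes compared. Psmb10 followed with 0.46, above 94.6%, then Tapbp with 0.26 and Psmb8 with 0.16. H2-K1 had -0.08 and Nlrc5 -0.11. By the median over exons B2m had 0.43 and Psmb10 0.48, and 5 of the 9 were higher in place of 7.

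In the double KO the median was 0.09, with 7 higher and 2 lower (Tap2 at -0.12 and Psmb9 at -0.19), against -0.10 over all genes, of which 32.9% were higher. None was called, against 1.24% of all genes. Tapbp had the largest ratio, 0.29, followed by B2m with 0.23 and Psmb10 with 0.21. In the Ezh1 KO the median was -0.02 and that of all genes -0.13, with 2 members higher and 7 lower, beside 22.7% of all genes higher. With median-of-ratios scaling the members' median there became 0.09, so the sign of this value depends on the scaling. None was called, against 0.442% of all genes, and B2m had the largest ratio at 0.18, or 0.02 by the median over exons.

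Set against the single mutants, the double KO had a median log2 ratio of 0.14 to the Ezh1 KO (all genes 0.04) and of -0.08 to the Ezh2 KO (all genes -0.06), which became 0.07 with trimmed mean scaling. No member was called in either, against 0.883% and 0.786% of all genes. For B2m the ratio was -0.36 to the Ezh2 KO and 0.05 to the Ezh1 KO. The highest B2m value was seen in the Ezh2 KO library and not in the double KO library. Bulk RNA cannot tell more RNA per cell from more cells that hold much of it.

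Lists of related genes were set beside the 9. Of the class I relatives 10, the H2-L row among them, could be compared and 0 were called in any mutant, with median log2 ratios to WT of -0.05 (Ezh1 KO), 0.07 (Ezh2 KO) and then 0.13 (double KO). Of 9 helpers of peptide trimming and loading, such as Calr, Hspa5 and Canx, 0 were called, with medians of -0.07, 0.22 and 0.09. Calr, a chaperone of the loading complex, had RNA of 30.2, 26.9, 36.5 and 30.7 in the 4 libraries. The 3 constitutive catalytic subunits had medians of -0.31, -0.15 and -0.34, and the 16 other proteasome genes -0.28, -0.01 and -0.20, with 0 called in either list.

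The 14 regulators of class I promoters had 11 genes that could be compared, of which 0 were called, with medians of -0.11, 0.04 and -0.04. Irf1, an interferon-induced factor among them, had 10.02, 10.11, 12.7 and 9.73. Among interferon signalling and interferon-stimulated genes 0 of 23 were called in the Ezh1 KO, 7 of 24 in the Ezh2 KO and 6 of 23 in the double KO, all of them higher, beside 1.5% and 1.24% of all genes called in these 2 mutants. Those 6 were Irf7, Isg15, Ifit3, Oasl2, Usp18 and Rsad2, and Iigp1 was the seventh in the Ezh2 KO. Oasl2 (0.677 in WT) and Rsad2 (0.593) were under 1 in WT and could be compared only because they were higher in the mutants. The medians of that list were 0.09, 0.71 and 0.46, against 0.10 for the class I pathway in the Ezh2 KO. Isg15, a ubiquitin-like antiviral protein, had 3.94, 5.14, 13.8 and 10.9. Irf1, Isg15, Ifit3, Oasl2 and Iigp1 were highest in the Ezh2 KO, as B2m and Psmb10 were, whereas Irf7, Usp18 and Rsad2 were highest in the double KO. Whether the class I values follow these genes was not tested.

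**Figure D5:**
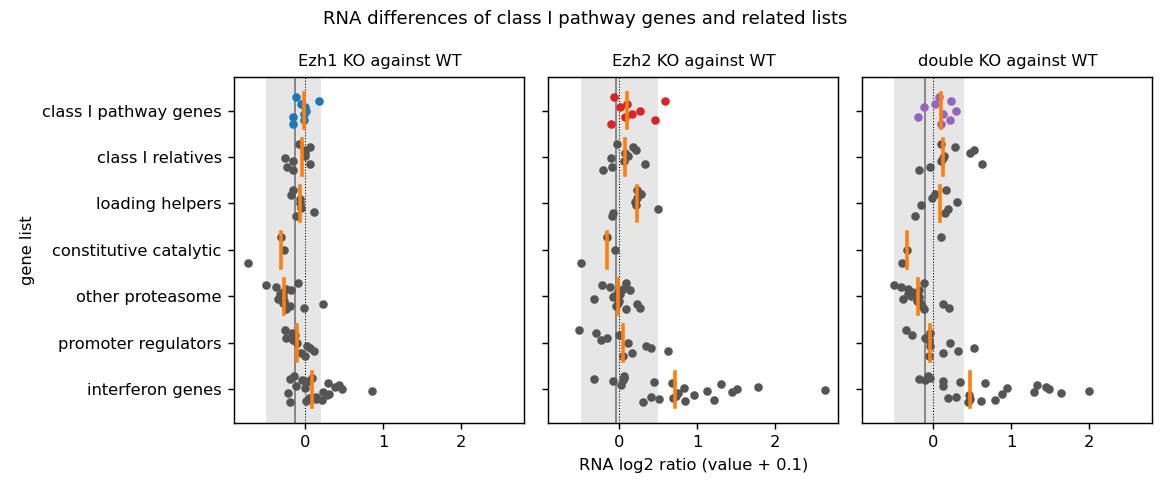
RNA log2 ratio (value + 0.1) of each mutant library to WT for single genes (points) of the class I pathway and related lists, by list. In the Ezh2 KO, B2m (0.59) and Psmb10 (0.46) stand apart from the other class I pathway genes, and interferon genes reach further to the right.

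RNA of other cell types moved between the same libraries. The summed RNA of 8 B cell markers was 2.93 (WT), 3.08 (Ezh1 KO), 5.14 (Ezh2 KO) and then 8.41 (double KO), with 0 of the 8 listed at 0 throughout. The sum for 9 myeloid or dendritic markers was 1.76, 2.33, 3.04 and 3.41, and for 6 NK cell markers 2.80, 2.08, 5.83 and 3.03. Most of the NK difference between WT and the Ezh2 KO lay in Gzma, at 0.226, 0.270, 2.90 and 1.13. Of 3 NK markers that could be compared in the Ezh2 KO, Klrb1c and Gzma were higher than in WT and 1 was lower. In the double KO, of 2 compared, Gzma was higher and 1 was lower. Sums for CD8 T cells (1.011 to 2.07), plasma cells (2.97 to 4.84) and erythroid cells or platelets (0.0758 to 0.519) were also small beside the CD4 T cell sum. Class II genes mark B and dendritic cells. Of 7 that could be compared in the double KO, 5 were called against WT, all higher, beside 1.24% of all genes. They were H2-Aa, H2-Ab1, H2-Eb1, H2-DMb2 and Cd74. H2-Aa (0.771 in WT) and H2-DMb2 (0.248) were under 1 in WT and could be compared only because they were higher in the mutants. H2-Ab1 had 2.45, 3.86, 4.66 and 8.37. H2-DMa, the 1 gene lower there than in WT, had 1.32, 1.07, 2.13 and 1.22. The B cell and myeloid sums and H2-Ab1 were highest in the double KO, and the NK and plasma cell sums in the Ezh2 KO, as B2m was. The part of these cells in the class I values was not tested.

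The genes whose RNA pattern was most like that of B2m were found over the 3 log2 ratios to WT, by root mean square difference among 5110 candidates. The nearest were Dek (0.0372), Farsb (0.0417), Tacc1 (0.0435), the gene with the identifier ENSMUSG00000073044 (0.0461) and Phgdh (0.0475). Dek, a chromatin protein, had 4.03 (WT), 4.57 (Ezh1 KO), 5.85 (Ezh2 KO) and then 4.70 (double KO). Among class I pathway genes Psmb10 was nearest at rank 60 (0.132) and Tapbp next at rank 251, while H2-K1 ranked 2078. With 3 ratios that share 1 WT library, this likeness is a description only.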

How the data were processed

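There are 8 libraries, 1 for each genotype in each of ChIP-seq for H3K27me3 and RNA-seq. Per the labels, 50-cycle reads were aligned to mm9 with Bowtie 0.12.7 and kept with at most 2 errors at a single location; bcl2fastq, Cufflinks and Cuffdiff stand in the submitters' processing notes with no role given. What the authors deposited is coverage signal. Per the file headers it is the area and highest bin of a window at each start site, and the mean and median over exons of peak coverage. From the values, both are per M reads, with ChIP reads extended to 151 bases in 25-base bins. Another deposited number, per the file headers, is the exon count of a gene. How the columns were computed and whether input was subtracted is not given in the sources used here.

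Mutants were set against WT, and the double KO also against either single KO, by log2 ratios with a pseudocount of 1 (ChIP) or 0.1 (RNA), which understates changes of low genes. A feature entered at 1 or more in the higher library and was called at 2-fold, over the whole table. With 1 library a group there is no test; replicates, and so separate mice, are absent. ChIP intervals (exact Clopper-Pearson, 95%) use read equivalents from the height of 1 read, without the pseudocount, and cover only counting error. PCR reads with no molecular identifier are not independent molecules. RNA peak heights are no counts and got no intervals. Uniqueness of 50-base stretches was counted in mm9, and promoter windows came from RefSeq (GRCm38.p6), where 8 of 10 members matched. The members and lists were chosen with earlier results of these data known. All members were to be named; from each list, genes called in a mutant and up to 3 with the highest WT RNA; and the 5 genes nearest in RNA pattern to the member with the largest ratio. H2-Q2, H2-Q10, H2-M5 and the other relatives named for H3K27me3, and Psmb5 to Psmb7 as partners, were named after their values were seen. A planned protein alignment was not run, and 1 gene of the regulator list is not reported here by name. The calls were checked on simulated data. Python 3.11.15, numpy 2.4.6, pandas 2.3.3, scipy 1.17.1 and matplotlib 3.10.9 were used.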

Additional observations from a re-analysis of the deposited data

How the results depend on the processing

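No paired analysis was possible because each group has 1 library, and for the same reason no library could be left out. Other pseudocounts, minimum values, scalings, a 1.5-fold threshold, the highest bin of a window and the median over exons were tried. The count of class I pathway genes called stayed at 0 in all 40 alternative counts for H3K27me3 and in 39 of 40 for RNA. The exception was the 1.5-fold threshold in RNA of the Ezh2 KO against WT, where 1 gene, B2m, was called, as were 6.19% of all genes. The members' median log2 ratio to WT ranged for H3K27me3 from 0.03 to 0.16 in the Ezh1 KO, from 0.21 to 0.48 in the Ezh2 KO and from 0.13 to 0.31 in the double KO. For RNA it ranged from -0.07 to 0.09 in the Ezh1 KO, from 0.05 to 0.13 in the Ezh2 KO and from 0.08 to 0.20 in the double KO. The RNA median of the double KO to the Ezh2 KO ranged from -0.10 to 0.07 and changed sign in 3 of 8 settings, and that of the Ezh1 KO to WT in 2 of 8. Of 350 single H3K27me3 values, 10 moved beyond their counting interval, all with the highest bin, where Psmb10 in the Ezh2 KO became -0.14 and Nlrc5 -0.30; the cause was not tested. Depth limits the windows to 62 to 173 read equivalents, so single H3K27me3 ratios under about 0.4 on the log2 scale were mostly not distinguishable from counting error. RNA precision could not be given.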
